A study of Mus musculus with 2 samples.

Results

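The cells described here are C1q macrophages of mouse gastrointestinal polyps: 259 single-cell barcodes whose RNA held the complement genes C1qa, C1qb and C1qc. They were chosen among 8460 barcodes of the polyp library with at least 500 unique molecular identifiers (UMIs, each counting 1 captured RNA molecule), at least 250 genes and at most 25% mitochondrial UMIs. A barcode was taken when the 3 C1q genes together had at least 3 UMIs and the T-cell receptor complex genes Cd3d, Cd3e and Cd3g had 0. The 259 made up 3.06% (95% Clopper-Pearson interval 2.70–3.45) of the kept polyp barcodes, and the series held 24277 deposited barcodes in 2 libraries. The cells were thus selected on their measured C1q and Cd3 UMIs, and the values of those genes describe the choice and are not reported as results.

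The study prepared 1 droplet library (10x Genomics 3′ v3 chemistry) for each of 2 groups of mice. The Lkb1_Het library came from the polyps of 3 mice with the genotype Lkb1flox/+;Myh11-Cre/ERT2, which carry 1 floxed allele of Lkb1 (gene symbol Stk11). The WT library came from normal tissue of the duodenum, taken from 3 mice with the genotype Lkb1+/+;Myh11-Cre/ERT2. Both groups carry the same driver, a tamoxifen-inducible Cre recombinase driven by the smooth-muscle gene Myh11. Age and tamoxifen dosing are not given in the labels used here, and the cells of the 3 mice of a group cannot be separated. The source label of both samples reads duodenum, but the polyp library held abundant RNA of gastric-type epithelium, so the site of the polyps is uncertain and a difference between polyp and normal duodenum cannot be told apart from one between sites. With 1 library per group no test was possible, and every interval below covers counting error only, not the spread between mice, tissue pieces or library preparations. Intervals of levels and ratios rest on summed UMIs and also leave out the spread between barcodes.

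Macrophages of the gut wall are phagocytes that take up dead cells, debris and microbes, digest them in lysosomes and present peptides on MHC class II. In the mouse intestine many are replaced from blood monocytes, which enter expressing Ccr2 and Ly6c2 and lose them as they mature, while long-lived resident cells keep genes such as Mrc1, Lyve1, Folr2 and Cd163. C1q, which the mature cells make, is the recognition molecule of the classical complement pathway and also coats dying cells.

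The label was checked against genes the choice had not used. Of 10 other genes of macrophages and their relatives (Csf1r, Adgre1, Mrc1, Cd68, Lyz2, Fcgr3, Tyrobp, Fcer1g, Ctss and Aif1), the C1q macrophages held a median of 6, and 0 of the 259 held none, while Epcam-bearing epithelial barcodes without Ptprc had a median of 0. At least 3 of the 10 were present in 239 of 259 barcodes, and 158 held a UMI of Csf1r, the receptor for colony-stimulating factor 1, or of Adgre1, which encodes F4/80. The share with a Csf1r UMI was 51.4%, against 2.98% of other Ptprc-positive barcodes and 0.298% of epithelial barcodes. For Adgre1 the share was 34.0%, against 1.11% and 0.0688%. Median depth was 2036 UMIs in the C1q macrophages, 2265 in the other Ptprc-positive barcodes and 6703.5 in epithelium, so the barcodes with the low shares were not shallower. Ptprc itself, which encodes the leukocyte antigen CD45, had a UMI in 108 of the 259 (41.7%).

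The C1q sum per barcode ran from 3 to 99 UMIs with a median of 11. Of kept barcodes without Cd3 UMIs, 7134 had 0 C1q UMIs, 183 had 1, 35 had 2, 28 had 3 and 34 had 4 to 5, after which 65 had 6 to 10, 65 had 11 to 20 and 67 had more. The ranges widen along this order, and there was no gap in the numbers at the threshold. Just inside it, 82.1% of the 28 barcodes at 3 C1q UMIs held at least 3 of the 10 macrophage genes, 25% held Csf1r and 67.9% held Lyz2, the gene of macrophage lysozyme. Just outside, these shares among the 35 barcodes at 2 C1q UMIs were 57.1%, 14.3% and 42.9%. In the 67 barcodes with 21 to 99 C1q UMIs the share with at least 3 of the 10 genes was 100%, and 80.6% held Csf1r. Depth rose along the same order, with median UMIs of 881 at 2 C1q UMIs, 897.5 at 3 and 3399 at 21 to 99. Its part in these shares was not tested.

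**Figure D1:**
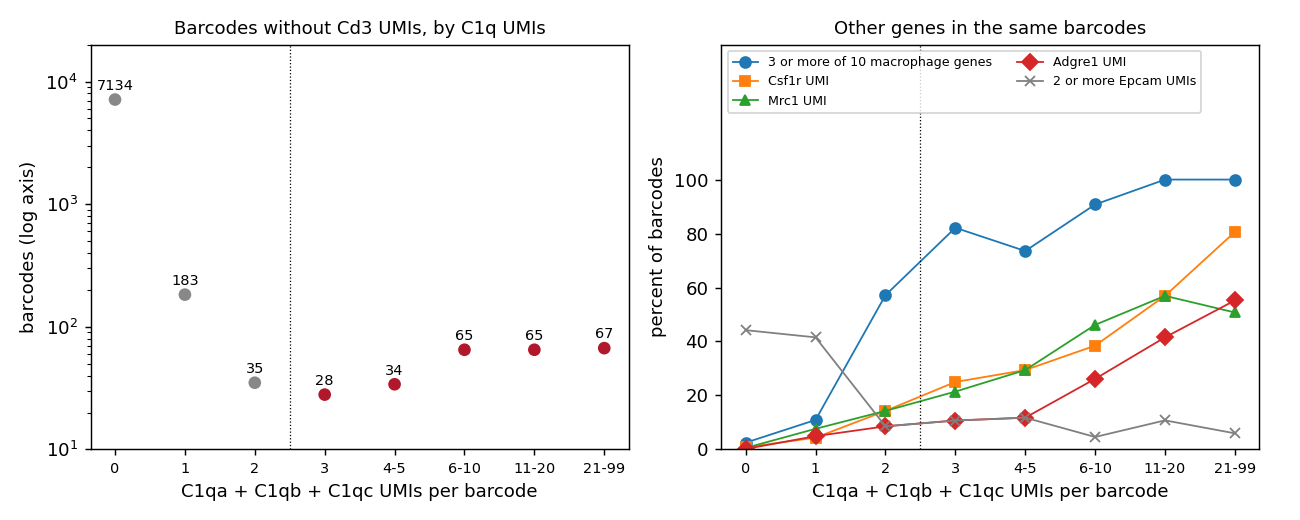
Kept polyp barcodes without Cd3 UMIs by their summed C1qa, C1qb and C1qc UMIs: the left panel gives the number of barcodes on a log axis, the right panel the percentage holding other genes, and the dotted line marks the threshold of 3. The ranges above 3 span several C1q values each, so their counts are not comparable with those at single values. The share with Csf1r runs from 0.757% to 80.6%, and median depth also rises from 2 C1q UMIs on.

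Some facts of the libraries touch these cells. RNA of gastric-type epithelium was present in every barcode: the secreted trefoil factor genes Tff1 and Tff2 had UMIs in 259 of 259, with medians of 11 and 36 UMIs, and 70 held a UMI of the epithelial adhesion gene Epcam. The summed level of 10 epithelial markers was 44819.6 against 49047 CPM in the C1q macrophages and the other Ptprc-positive barcodes, where CPM is UMIs of a gene or list per 1000000 UMIs of the set. Tff1 and Tff2 are among the 10 and make up most of both sums. The deepest C1q macrophage barcode had 54344 UMIs, 7.25% of all UMIs of the 259, and held 13 C1q UMIs but 7645 of Tff1, 5732 of Gkn1 and 0 of Csf1r, Mrc1 or Lyz2. The second deepest had 30098 UMIs. Of the 44 barcode sequences that both libraries shared, 0 belonged to C1q macrophages of the polyp.

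Against the other 1173 Ptprc-positive barcodes of the same polyp library, the C1q macrophages differed across much of the transcriptome, and the genes with the largest ratios were chemokines, lipid-handling genes and receptors of macrophages. The comparison set held 536 barcodes with Cd3 UMIs and 177 with Cd79a or Cd79b, so lymphocytes made up much of it. Of 10405 genes measured with at least 20 UMIs over both sets, 1177 were at least 2-fold higher (11.3%) and 1240 at least 2-fold lower (11.9%) in the C1q macrophages. The median log2 ratio over all measured genes was -0.05. Values are levels, meaning the UMIs summed over a set divided by all UMIs of the set, and ratios carry exact conditional binomial 95% intervals.

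Apoe, which encodes the lipid carrier apolipoprotein E, was present in nearly all of the cells. It had UMIs in 251 of 259 C1q macrophages, with a lowest count of 0, a median of 20 and a highest of 284 per barcode. Its level was 11396 against 99.2 CPM, a ratio of 115 (105–126). Apoe lies on chromosome 7, 19696109 to 19699188 (mm10). Trem2, a lipid-sensing receptor that binds apolipoproteins, was at 143 against 1.02 CPM, a ratio of 139.5 (58.0–438). Among 18 measured lipid-handling genes 12 were higher and 0 lower, with a median log2 ratio of 1.57. Lpl, the lipoprotein lipase gene, was 26.1 (12.8–58.5) times the comparison level, and Abca1, which exports cholesterol, 17.3 (11.5–26.4) times.

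Chemokines led the ranking of higher genes, and Ccl12, Ccl8 and Pf4 were nearly absent from the comparison set. Ccl12, a monocyte-attracting chemokine (chromosome 11, 82101845 to 82103400), was at 812 against 2.25 CPM, a ratio of 361 (200.3–727). Ccl8, its neighbour in the chemokine cluster of the same chromosome (chromosome 11, 82115185 to 82116799), was at 1457 against 4.91 CPM, a ratio of 297 (198–465). Pf4, platelet factor 4 (chromosome 5, 90772435 to 90773383), was at 1551 against 5.52 CPM, a ratio of 281 (192–428). Their spread over barcodes differed: Pf4 had UMIs in 167 of 259, with a median of 2 and a highest count of 45, while Ccl8 had UMIs in 116, with a median of 0 and a highest count of 158. In epithelium the Pf4 level was 3.17 CPM and the Ccl8 level 1.90 CPM.

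Of 22 measured chemokines, 16 were higher and 3 lower. The inflammatory chemokine Ccl4 was at 8059 against 1237 CPM (ratio 6.52, 6.29–6.75), with UMIs in 163 barcodes and up to 258 in 1. Cxcl2, which attracts neutrophils, was at 2322 against 218 CPM (ratio 10.7, 9.88–11.5), with UMIs in 96 barcodes and a median of 0. Ccl3 was 12.0 (10.8–13.4) times the comparison level, Ccl7 7.16 (6.49–7.89) times and Ccl2 2.15 (1.94–2.39) times. In the other direction, the lymphocyte chemokine Ccl5 was 11.4-fold (9.21–14.4) lower, at 111 against 1265 CPM. Cxcl10, an interferon-induced chemokine, was at 568 against 943 CPM, within 2-fold. Ccl24 had a ratio of 271 (72.6–2271), but 53.0% of its 83 UMIs lay in 1 barcode, and all 44 UMIs of Ccl17 lay in 1 barcode.

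Genes of macrophage identity were higher too. Of 24 measured genes of identity and colony-stimulating factor signalling, 20 were higher and 1 lower, with a median log2 ratio of 3.17. Csf1r was at 349 against 9.61 CPM, a ratio of 36.3 (26.6–50.7). Cx3cr1, the fractalkine receptor that gut macrophages carry, was at 305 against 4.91 CPM, a ratio of 62.2 (40.8–99.1). Adgre1 was at 208 against 2.86 CPM (ratio 72.6, 42.0–136) and Lyz2 at 2632 against 127 CPM (ratio 20.8, 19.0–22.8). Ms4a7, a membrane gene of mature macrophages, was at 395 against 1.43 CPM (ratio 276, 132–692). Fcrls and Cbr2 also stood among the 15 leading genes, at 104 against 1.43 CPM (ratio 72.6, 33.6–187) and 68.0 against 0.818 CPM (ratio 83.1, 30.5–317). The 1 gene that was lower was Csf2, the cytokine GM-CSF made by lymphocytes, with 0 against 146 UMIs, at least 7.47-fold lower by a floor of 3 UMIs.

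**Figure D2:**
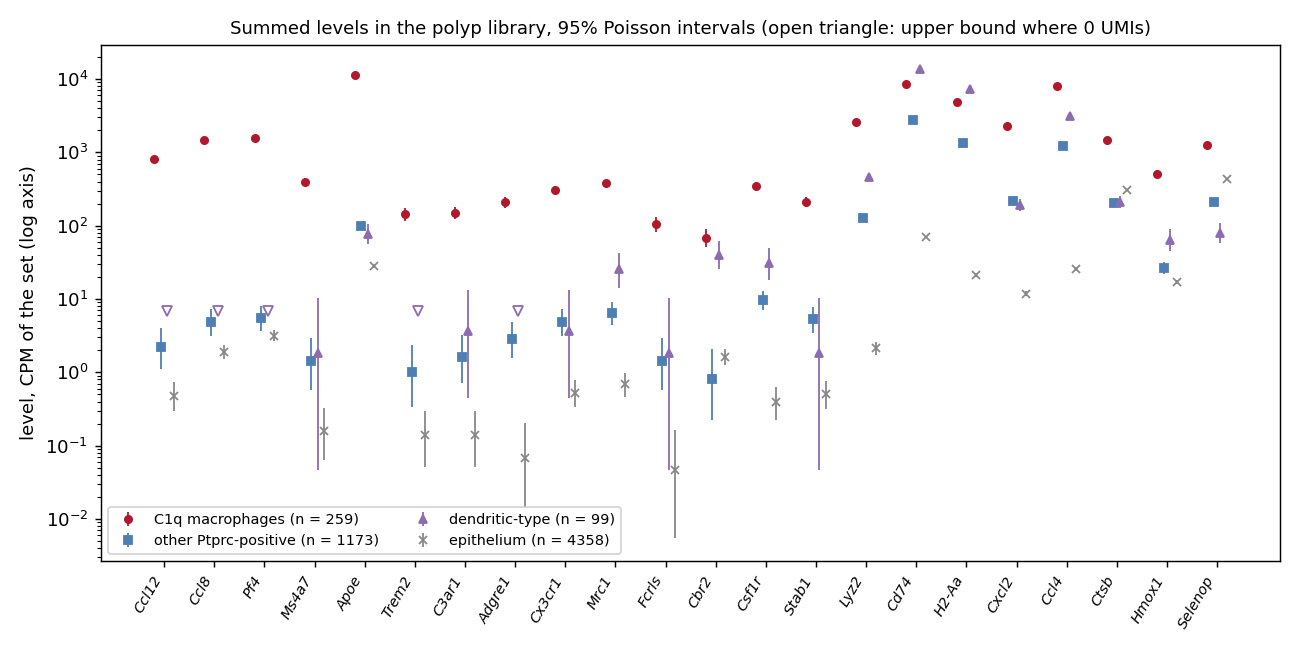
Levels of 14 leading genes and of 8 further genes in the C1q macrophages, the other Ptprc-positive barcodes, the dendritic-type barcodes and the epithelium of the polyp library, in CPM of each set on a log axis with exact Poisson 95% intervals. Ccl12, Ccl8 and Pf4 lie above 800 CPM in the C1q macrophages and below 6 CPM in the other 3 sets, whereas Cd74 and H2-Aa are highest in the dendritic-type barcodes.

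Receptors for uptake were higher as a group. Of 18 measured scavenger and engulfment genes, 15 were higher and 0 lower, with a median log2 ratio of 2.93. Mrc1, the mannose receptor, was at 377 against 6.55 CPM (ratio 57.7, 39.9–85.9). Stab1, which clears lipoproteins and dead cells, was at 209 against 5.32 CPM (ratio 39.4, 25.9–62.1). Axl, a receptor for phosphatidylserine-bound bridging proteins, was at 157 against 6.34 CPM (ratio 24.8, 16.6–38.1), and its relative Mertk had 27 against 2 UMIs, a ratio of 88.0 (22.1–764). Cd36 was at 96.0 against 6.55 CPM (ratio 14.7, 9.55–23.0). Mfge8, a bridging protein, was at 58.7 against 68.7 CPM, and Marco and Cd5l had 0 UMIs in both sets.

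The lysosomal list was almost uniform. Of 22 measured proteases and hydrolases, 21 were higher and 0 lower, with a median log2 ratio of 2.15. Legumain (Lgmn), an asparaginyl protease, was at 575 against 35.6 CPM (ratio 16.1, 13.5–19.4). The cathepsins Ctsb and Ctss were 7.26 (6.66–7.91) and 9.29 (8.34–10.4) times the comparison level.

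For antibody and complement handling the receptors stood out and the fluid-phase genes less so. Of 17 measured Fc receptors and adaptors, 14 were higher and 2 lower, with a median log2 ratio of 3.45. The IgG receptors Fcgr1, Fcgr3 and Fcgr4 were 48.9 (20.8–140.2), 35.0 (23.1–54.9) and 53.1 (24.2–138) times the comparison level. The mast-cell IgE receptor gene Fcer1a had 0 against 109 UMIs. Of 12 measured complement genes besides C1q, 7 were higher and 0 lower. The receptor for C3a, C3ar1, was at 151 against 1.64 CPM (ratio 92.1, 45.2–218) and the receptor for C5a, C5ar1, at 120.0 against 6.55 CPM (ratio 18.3, 12.1–28.4). The component C3 was at 22.7 against 10.4 CPM (ratio 2.17, 1.18–3.83), properdin (Cfp) at 66.7 against 13.9 CPM and the proteases C1ra and C1s1 had 2 UMIs each.

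Antigen presentation differed between the 2 MHC classes. Of 15 measured class II genes, 9 were higher and 3 lower, with a median log2 ratio of 1.48. Cd74, the invariant chain, was at 8495 against 2769 CPM (ratio 3.07, 2.98–3.16), with UMIs in 240 of 259 barcodes and a median of 13. H2-Aa was at 4880.4 against 1334 CPM (ratio 3.66, 3.51–3.81), with UMIs in 215 barcodes. The lower members were H2-DMb2, H2-Oa and H2-Ob, the last of which had 2 against 116 UMIs. H2-Oa and H2-Ob encode the peptide-loading modulator H2-O, which is typical of B cells. Of 10 measured class I genes, 0 were higher and 1 lower, and H2-K1 was at 821 against 927 CPM.

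Iron and haem genes were higher in 10 of 15, with 0 lower. Hmox1, which breaks down haem, was at 513 against 26.6 CPM (ratio 19.3, 15.8–23.7), with UMIs in 109 of 259 barcodes and a highest count of 16. The iron exporter Slc40a1 was at 52.0 against 1.64 CPM (ratio 31.8, 14.6–78.7), and Spic, a transcription factor of iron-recycling macrophages, at 45.3 against 1.02 CPM (ratio 44.3, 17.2–145). The ferritin heavy chain gene Fth1 was at 14066 against 4721 CPM (ratio 2.98, 2.91–3.05). Of 5 measured erythroid genes 4 were higher too, with summed levels of 7221 against 3356 CPM. The globin gene Hbb-bs had UMIs in 216 of the 259 barcodes, with a median of 2, and 2231 of its 3291 UMIs lay in 1 barcode. Whether this globin RNA was inside the macrophages or came from red cells in the suspension was not tested.

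Inflammatory and restraining genes were both present. Of 17 measured inflammatory cytokine genes, 9 were higher and 2 lower. Il1b was at 436 against 130.1 CPM (ratio 3.35, 2.92–3.84), Tnf at 229 against 61.2 CPM (ratio 3.75, 3.09–4.54), and the inflammasome sensor Nlrp3 at 145 against 20.5 CPM (ratio 7.11, 5.37–9.42). The interferon gene Ifnb1 was at 104 against 7.36 CPM (ratio 14.1, 9.40–21.6), with a UMI in 7.72% of the C1q macrophages and 25.6% of its UMIs in 1 barcode. Il6 had 4 against 121 UMIs and Nos2 had 0 in both sets. Of 24 measured restraining and alternative-activation genes, 13 were higher and 3 lower. The interleukin-1 receptor antagonist Il1rn was at 113 against 17.6 CPM (ratio 6.44, 4.72–8.80), and Sirpa, the receptor of the CD47 signal that restrains phagocytosis, at 160.0 against 9.82 CPM (ratio 16.3, 11.6–23.3). Il10, the main anti-inflammatory cytokine of gut macrophages, was at 24.0 against 23.9 CPM, and Arg1 had 4 against 29 UMIs. Retnla had 40 UMIs, 37 of them in 1 barcode.

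Genes by which macrophages act on tissue were higher in 13 of 24, with 1 lower and a median log2 ratio of 1.85. Igf1, insulin-like growth factor 1, had 87 against 19 UMIs, at 116 against 3.89 CPM. The matrix metalloproteinase genes Mmp13 and Mmp12 were at 74.7 against 1.02 CPM (ratio 73.0, 29.5–234) and 57.3 against 6.55 CPM (ratio 8.76, 5.42–14.3). Plau, the urokinase gene, was at 61.3 against 2.86 CPM (ratio 21.4, 11.6–42.2) and the growth factor gene Pdgfb at 85.3 against 5.73 CPM (ratio 14.9, 9.42–24.1). Bmp2, a signal from macrophages to the muscle layer and enteric neurons in the mouse gut, was at 113 against 19.8 CPM (ratio 5.71, 4.22–7.72). The epidermal growth factor family member Areg was 2.05-fold (1.58–2.69) lower.

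Of 14 measured prostaglandin and leukotriene genes, 7 were higher and 0 lower. The cyclooxygenase gene Ptgs1 was at 57.3 against 1.64 CPM (ratio 35.0, 16.3–86.3), the prostaglandin D synthase Hpgds at 100.0 against 8.80 CPM (ratio 11.4, 7.71–16.9) and the leukotriene C4 synthase Ltc4s at 131 against 19.0 CPM (ratio 6.87, 5.12–9.22). The inducible Ptgs2 was at 69.3 against 29.0 CPM (ratio 2.39, 1.70–3.30). In the list of interleukin-6 family genes, 4 of 15 were higher and 2 lower, among them the receptor Lifr at 57.3 against 4.50 CPM (ratio 12.7, 7.46–22.4) and Il6ra at 56.0 against 9.20 CPM (ratio 6.08, 3.90–9.48).

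The remaining groups are set beside the shares over all measured genes, 11.3% higher and 11.9% lower. The interferon-response, glycolysis and LKB1 lists differed from these shares by few genes. Microbial sensors were higher in 9 of 13, with Tlr2 at 108 against 9.20 CPM and Tlr7 at 66.7 against 5.52 CPM, and receptors for chemoattractants in 6 of 9. Interferon-response genes were higher in 4 of 20 and lower in 3, with summed levels of 3563 against 3547 CPM. Ifit1 was 11.9-fold (7.84–19.1) lower and Isg15 2.79-fold (2.37–3.31) lower. Immediate-early and heat shock genes, which digestion of tissue is known to induce, were higher in 11 of 20, with Hspa1b at 6199 against 1829.8 CPM and Egr1 at 1277 against 370.4 CPM. Cell cycle genes were higher in 0 of 20 and lower in 6, and glycolysis and hypoxia genes were higher in 1 of 18 and lower in 2. Stk11, the gene floxed in the polyp mice, was at 50.7 against 35.4 CPM (ratio 1.43, 0.980–2.04) from 38 UMIs. Of 16 measured genes of the LKB1 complex and its downstream kinases, 1 was higher and 3 lower, and of 16 CREB-responsive genes that those kinases restrain, 3 were higher and 7 lower. Crem was 6.48-fold (3.59–13.1) lower and Sik1 5.30-fold (2.93–10.7) lower, while the summed level of the CREB-responsive list was 4787 against 2771 CPM.

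**Figure D3:**
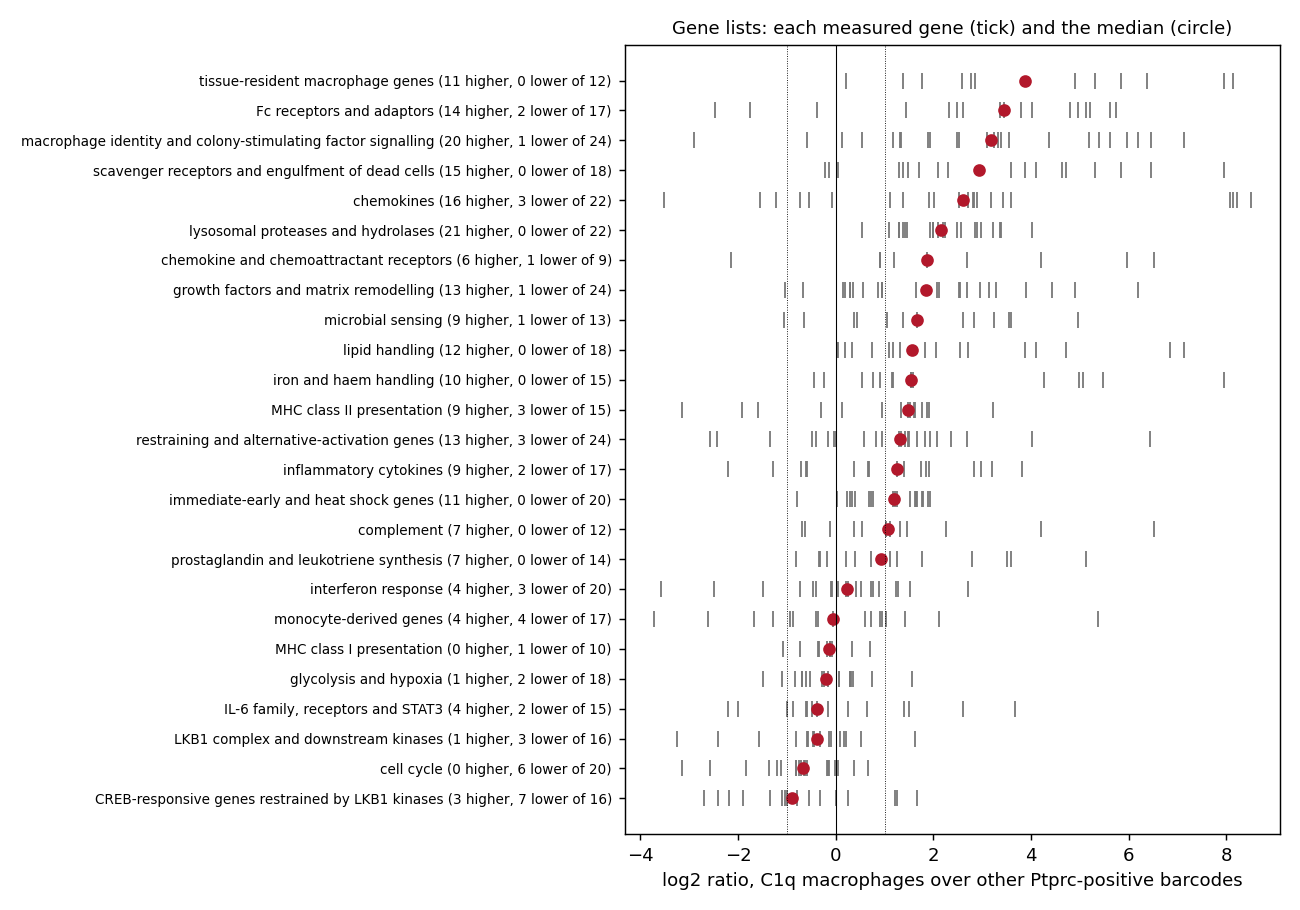
Log2 ratios of the C1q macrophages over the other Ptprc-positive barcodes of the polyp, 1 line per list of gene function (cell type marker lists are not drawn): ticks are measured genes, circles the list medians, dotted lines 2-fold, and list names carry the counts higher and lower. Medians of the lists drawn run from 3.88 for the tissue-resident list down to -0.89 for the CREB-responsive list.

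Most defining markers of T cells, mast cells and neutrophils were at or near 0. The 10 genes with the clearest lower levels were led by the T-cell receptor genes Trbc1 (0 against 695 UMIs) and Trbc2 (1 against 939 UMIs), the plasma-cell genes Jchain (31.2-fold lower, 27.4–35.6, with 50.4% of its UMIs in 1 barcode) and Mzb1 (68.1-fold lower, 26.6–250.4), and Ctla4, Trac, Gata3, Lat, Il2rb and Tnfrsf4, each at 0 UMIs in the C1q macrophages. The C1q macrophages were chosen with 0 Cd3 UMIs, while 536 barcodes of the comparison set held Cd3 UMIs. Low levels of T-cell genes, here and in the marker counts below, therefore follow in part from the choice. The neutrophil genes S100a8 and S100a9 had 0 UMIs against 677 and 1080. All 9 measured mast-cell markers were lower, with summed levels of 25.3 against 1133 CPM. Lower levels were also found for 4 of 7 B-cell, 5 of 8 plasma-cell (599 against 10413 CPM), 7 of 7 NK or innate lymphoid, 3 of 6 neutrophil, 7 of 9 further T-cell, 6 of 11 dendritic and 3 of 6 fibroblast markers. Of 10 epithelial markers 0 were past 2-fold either way. Of 11 measured monocyte markers 4 were higher and 2 lower, with summed levels of 608 against 716 CPM, and of 2 measured endothelial markers 1 was higher and 1 lower.

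Lists of resident and of monocyte-derived character behaved differently. Of 12 measured tissue-resident genes 11 were higher and 0 lower, with a median log2 ratio of 3.88. Folr2, a folate receptor of resident macrophages, had 43 against 1 UMIs, and Cd163, the haemoglobin scavenger receptor, 38 against 1 UMIs. Selenop, which encodes a selenium transport protein, was at 1265 against 211 CPM (ratio 5.99, 5.48–6.55), and Lyve1, a hyaluronan receptor, had 25 against 24 UMIs, with 22 of the 24 in 1 barcode. Timd4 had 5 UMIs, and Vsig4 had 0 in both sets. Of 17 measured monocyte-derived genes 4 were higher and 4 lower, with a median log2 ratio of -0.06. F13a1, the coagulation factor XIII gene on this list, was at 109 against 2.66 CPM (ratio 41.1, 22.8–80.5), while Plac8 was at 273 against 525 CPM.

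Dendritic cells also present antigen, and 99 dendritic-type barcodes were set beside the 259 C1q macrophages. The dendritic-type barcodes held at least 2 UMIs over 8 dendritic genes and 0 of C1q, Cd3, Cd79a and Cd79b, and were chosen after the data had been seen. Their median depth was 5246 UMIs. Of 5551 measured genes 1032 were at least 2-fold higher (18.6%) and 518 at least 2-fold lower (9.33%) in the C1q macrophages, and the median log2 ratio was 0.10. Pf4, Ccl8 and Ccl12 had 0 UMIs in the dendritic-type barcodes, and Apoe was at 11396 against 77.0 CPM (ratio 148, 109–205). Tissue-resident genes were higher in 9 of 10, scavenger and engulfment genes in 14 of 17 and lysosomal genes in 15 of 22. MHC class II genes ran the other way, lower in 7 of 14 and higher in 1, with Cd74 at 8495 against 13813 CPM (ratio 0.615, 0.595–0.636) and H2-Aa at 4880.4 against 7311 CPM (ratio 0.668, 0.638–0.698). The migration receptor Ccr7 was 20.6-fold (12.2–37.5) lower in the C1q macrophages, and Lsp1, a leukocyte cytoskeleton gene, 12.5-fold (9.44–16.7) lower. Mast-cell markers stood at 25.3 against 2093 CPM and epithelial markers, mostly Tff1 and Tff2 in the C1q macrophages, at 44819.6 against 12456 CPM. Fibroblast markers stood at 45.3 against 492 CPM. In other Ptprc-positive barcodes mast-cell and fibroblast markers were at 1133 and 104 CPM, below the dendritic-type set. Both sets thus held RNA of other cells. Whether the dendritic-type set held stray RNA or whole barcodes of other cell types was not tested, nor was its part in these ratios.

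The split by Mrc1 against Ly6c2 or Ccr2 assigned 135 of the 259 barcodes. There were 105 with Mrc1 only (40.5%, 34.5–46.8), 18 with Ly6c2 or Ccr2 only (6.95%, 4.17–10.8), 12 with both (4.63%, 2.42–7.95) and 124 with neither (47.9%, 41.7–54.1). Mrc1 ran from 0 to 11 UMIs per barcode and was present in 45.2% (39.0–51.5), against 0.620% of epithelial barcodes. Ccr2, the receptor with which monocytes leave the marrow, was present in 11.6%, against 0.551% of epithelial and 10.5% of the other Ptprc-positive barcodes. Ly6c2, the classical monocyte antigen gene, had 2 UMIs in 1 barcode, a share of 0.386% against 0.941% in epithelium, so it was at background. All 18 barcodes of the second group had Ccr2, which had 54 UMIs in all, and they are called Ccr2-only below. Depth moved with the split, with median UMIs of 2004 for Mrc1 only, 2851 for Ccr2 only, 3329 for both and 1500 for neither. Thinned to 1000 UMIs per barcode, with 65 shallower barcodes left out, the shares were 35.1% for Mrc1 and 8.25% for Ly6c2 or Ccr2 of 194.

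Between the Mrc1-only and the Ccr2-only barcodes, resident genes, chemokines and iron genes were more often higher in the Mrc1-only set than lower. Of 2120 measured genes, 343 were at least 2-fold higher (16.2%) and 167 at least 2-fold lower (7.88%) in the Mrc1-only set, and the median log2 ratio was 0.03. With no minimum of UMIs per gene the balance turned, to 845 higher and 1533 lower. Apart from Mrc1, which the split used, 9 of 10 tissue-resident genes were higher and 0 lower. Their median log2 ratio was 1.88, with the 5 genes at 0 UMIs in the Ccr2-only set taken at their bound. Those 5 reached the minimum of 20 UMIs through the Mrc1-only set alone. They could not have been called lower, so their direction was fixed by the filter.

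Ccl8 led the ranking of genes higher in the Mrc1-only set. It had UMIs in 66.7% of the Mrc1-only barcodes, at 2959.6 CPM, and 0 UMIs in the 18 Ccr2-only barcodes, so it was at least 70.7-fold higher by the floor of 3 UMIs. Pf4 was at 2952 against 195 CPM (ratio 15.1, 8.96–27.8) and Ccl7 at 2005 against 293 CPM (ratio 6.84, 4.43–11.1). In both cases over 60% of the UMIs of the Ccr2-only set lay in 1 barcode. Of 16 measured chemokines 9 were higher and 1 lower, while Cxcl2 was at 2536 against 2679 CPM.

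Vcam1, the vascular cell adhesion molecule, was at 488 CPM against 0 UMIs, at least 11.7-fold higher. Stab1 had 121 against 1 UMIs, a ratio of 30.9 (5.44–1230), and the transcription factor Maf had 258 against 8 UMIs, a ratio of 8.23 (4.12–19.3). Selenop was at 2155 against 405 CPM (ratio 5.33, 3.67–8.02), Apoe at 15165 against 3599 CPM (ratio 4.21, 3.71–4.80) and Cx3cr1 at 456 against 69.8 CPM (ratio 6.54, 2.73–20.5). Ltc4s had 72 against 0 UMIs. F13a1, although it stood on the monocyte-derived list, had 71 against 1 UMIs, a ratio of 18.1 (3.15–726). Jchain, a plasma-cell gene, had 180 against 5 UMIs, with 65.0% of the 180 in 1 barcode.

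Iron genes were higher in 6 of 9, with Hmox1 at 709 against 112 CPM (ratio 6.35, 3.16–14.9) and Slc40a1 at 30 against 0 UMIs. The ferritin gene Fth1 went the other way within 2-fold, at 10816 against 18820 CPM (ratio 0.575, 0.539–0.613). Erythroid genes moved with this group: 4 of 5 were higher, with summed levels of 16222 against 1214 CPM, and 75.9% of the Hbb-bs UMIs of the Mrc1-only set lay in 1 barcode. Their part in the iron result was not tested. Epithelial markers were higher in 3 and lower in 1 of 7. Fc receptors and adaptors were higher in 8 of 15 and lysosomal genes in 7 of 21. MHC class II genes were higher in 1 of 9 and lower in 0, and H2-Aa was at 4954 against 5706 CPM (ratio 0.868, 0.777–0.972).

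Genes higher in the Ccr2-only barcodes rested on few molecules. The matrix protein gene Thbs1 had 19 against 38 UMIs, 7.83-fold (4.41–14.4) lower in the Mrc1-only set. Runx3, a transcription factor of leukocytes, had 8 against 17 UMIs (8.32-fold lower, 3.40–22.3) and Csf2rb, a subunit of the GM-CSF receptor, 8 against 13 UMIs (6.37-fold lower, 2.45–17.7). Clec4e, a lectin induced by inflammation, had 4 against 12 UMIs, under the minimum of 20 for a ratio. Lgals3, the galectin-3 gene, was at 224 against 739 CPM, 3.30-fold (2.24–4.83) lower in the Mrc1-only set. Outside the 2 genes of the split, monocyte-derived genes were lower in 3 of 6 and higher in 1. Growth factor and matrix genes were lower in 3 of 9 and higher in 5, with a median log2 ratio of 1.30, and the higher ones included Bmp2 (70 against 1 UMIs) and Igf1 (58 against 2 UMIs). Spp1 had 38 against 193 UMIs, but 89.6% of the 193 lay in 1 barcode. The other leading genes on this side were the hormone genes Gast, Pyy and Ghrl, the epithelial genes Reg1, Reg3b, Dmbt1 and Wfdc2, and Ccn1. For each of these 8 between 71.9% and 99.9% of the UMIs of the Ccr2-only set lay in 1 barcode.

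For Pf4, Apoe and Ccl8, barcodes with both markers or with neither lay between. Pf4 was at 2952 CPM with Mrc1 only, 1495 with both, 720.3 with neither and 195 with Ccr2 only. Apoe followed the same order, at 15165, 13757, 9695 and 3599 CPM. For Ccl8 the order was 2959.6 CPM with Mrc1 only, 726 with neither, 115 with both and 0 UMIs with Ccr2 only. Poisson intervals of neighbours in these orders overlapped for Apoe between Mrc1 only and both, and for Ccl8 between both and Ccr2 only, and did not overlap elsewhere.

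**Figure D4:**
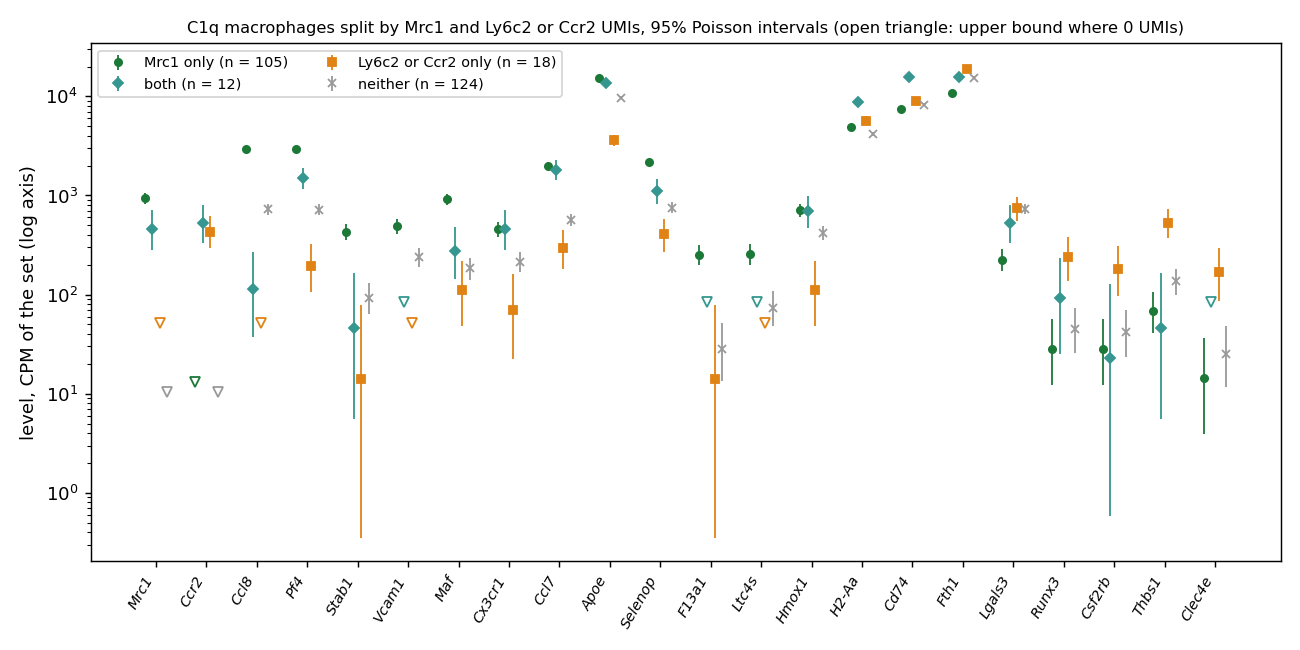
Levels of 22 genes in C1q macrophages with Mrc1 only, with both markers, with Ly6c2 or Ccr2 only and with neither, in CPM of each set on a log axis with exact Poisson 95% intervals; Mrc1 and Ccr2 made the split. Ccl8, Vcam1 and Ltc4s have 0 UMIs in the 18 Ccr2-only barcodes, and Thbs1, Runx3 and Clec4e are highest there.

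In normal duodenum the same rule found 20 C1q macrophages among 3252 kept barcodes, 0.615% (0.376–0.948), so the polyp share was 4.98 times (3.16–8.29) the normal share. This is a share of kept barcodes, so more macrophages and fewer of the other cells captured cannot be told apart. By the same split, 8 of the 20 had Mrc1 only, 1 had Ly6c2 or Ccr2 only, 2 had both and 9 had neither. The C1q sum ran from 4 to 216 UMIs in the normal cells, with a median of 20 at a median depth of 1676.5. In the polyp it ran from 3 to 99, with a median of 11 at 2036. C1q is given here as a description, since it chose the cells in both libraries.

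Between the 2 libraries, epithelial and globin RNA differed most, 4 of 10 MHC class II and 7 of 16 Fc receptor and adaptor genes were past 2-fold lower in the polyp cells, and Csf1r, Adgre1, Pf4, Ctsb and Apoe lay within 2-fold. Of 3914 measured genes 794 were at least 2-fold higher (20.3%) and 358 at least 2-fold lower (9.15%) in the polyp cells, and the median log2 ratio was 0.09. With no minimum of UMIs per gene the counts were 794 higher and 1625 lower. At 749940 against 75479 UMIs, a gene under 20 UMIs could be called lower but not higher, so the depths fixed the direction of this change. The normal side rests on 20 barcodes and 75479 UMIs, and library, mouse group and tissue cannot be told apart.

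The 10 leading higher genes were Tff1, Tff2, Gkn1, Gkn2, Gkn3 and Pgc, which mucous, pit or chief cells of stomach secrete, the hormone genes Pyy and Gast, and Clu and Chil4. For Gkn1, Gkn2, Pyy, Gast and Chil4 over 75% of the polyp UMIs lay in 1 barcode. Tff1 was at 17743 against 13.2 CPM, with 57.5% of its polyp UMIs in 1 barcode, and Tff2 at 24435 against 702 CPM. All 10 were also at least 2-fold higher in the other Ptprc-positive barcodes and the epithelium of the polyp library. For Tff2 the ratio was 11.1 in other Ptprc-positive barcodes and 7.05 in epithelium, against 34.8 (26.6–46.5) in the C1q macrophages. Epithelial markers summed to 44819.6 against 1166 CPM, and Tff1 and Tff2 are among them and make up most of the polyp sum. Erythroid markers summed to 7221 against 238 CPM. Since levels are shares of all UMIs, this RNA takes part in every polyp level, and its part in the lower macrophage levels was not tested.

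Among the 10 leading lower genes, 6 were digestive enzyme genes of pancreatic acinar cells (Ctrb1, Try4, Try5, Prss2, Pnlip and Cela2a). Ctrb1, a chymotrypsinogen gene, had UMIs in 17.4% of the polyp cells and 100% of the 20 normal cells, and it was 19.9-fold (14.1–28.4) lower. In other Ptprc-positive barcodes the Ctrb1 ratio of polyp to normal was 0.0331 and in epithelium 0.00835, and all 6 were lower in these other cells too. The remaining 4 were macrophage or leukocyte genes. Cbr2, a carbonyl reductase gene that the ranking against other leukocytes also held, had 51 against 34 UMIs, 6.62-fold (4.16–10.4) lower. Clec4b1, a lectin of myeloid cells, was 5.90-fold (3.16–10.7) lower and Cd48, a leukocyte adhesion gene, 4.76-fold (2.76–7.98) lower. Cd48 was also lower in other Ptprc-positive barcodes and epithelium of the polyp, with ratios of 0.224 and 0.236. Acp5 was 4.79-fold (3.20–7.06) lower, but 30 of its 40 normal UMIs lay in 1 barcode.

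All 10 measured MHC class II genes had ratios under 1, and 4 were past 2-fold, with a median log2 ratio of -0.97. Cd74 was at 8495 against 18389 CPM (ratio 0.462, 0.436–0.490) and H2-Aa at 4880.4 against 9234 CPM (ratio 0.529, 0.487–0.574). The Cd74 counts of single barcodes overlapped widely, from 0 to 163 with a median of 13 in the polyp and from 2 to 430 with a median of 24.5 in normal tissue. The 2 highest normal barcodes held 430 and 309 of the 1388 normal Cd74 UMIs. For H2-Aa the 2 highest held 172 and 85 of 697. Fc receptors and adaptors were lower in 7 of 16 and higher in 2, with the inhibitory receptor Fcgr2b at 179 against 676 CPM (ratio 0.264, 0.190–0.373). Tlr7, a sensor of RNA, was at 66.7 against 252 CPM (ratio 0.265, 0.153–0.476). MHC class I genes were lower in 3 of 7, identity genes in 5 of 21 and tissue-resident genes in 4 of 12. Cell cycle genes were lower in 6 of 9, each from 9 or fewer normal UMIs apart from Stmn1, Tubb5 and Hmgb2.

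Genes of macrophage identity summed to 8597 against 15315.5 CPM, with 2 of 21 higher, 5 lower and a median log2 ratio of -0.63. Some single macrophage genes lay within 2-fold. Csf1r was at 349 against 397 CPM (ratio 0.879, 0.601–1.33), Adgre1 at 208 against 212 CPM (ratio 0.981, 0.586–1.76), Pf4 at 1551 against 1868 CPM (ratio 0.830, 0.696–0.996) and Ctsb at 1493 against 1444 CPM (ratio 1.03, 0.849–1.27). Apoe was at 11396 against 17634 CPM (ratio 0.646, 0.610–0.685). Lyz2 was lower past 2-fold, at 2632 against 6836 CPM (ratio 0.385, 0.349–0.425), but 1 normal barcode held 196 of its 516 UMIs. Ccl8 was at 1457 against 3802 CPM (ratio 0.383, 0.336–0.438), with 128 and 100 of its 287 normal UMIs in 2 barcodes. Stk11 had 38 against 4 UMIs, a ratio of 0.956 (0.344–3.69).

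Some genes were higher in the polyp cells. Hmox1 was at 513 against 185 CPM (ratio 2.77, 1.63–5.11), with UMIs in 109 of 259 polyp and 4 of 20 normal cells, and erythroid RNA was higher beside it as given above. Growth factor and matrix genes were higher in 9 of 17 and lower in 1, beside 20.3% of all genes higher. Of the 17, 4 had 0 normal UMIs and were measured through the polyp side alone, so they could not have been called lower. In epithelium Spp1 was at 938 CPM in the polyp against 25.4 in normal tissue, Thbs1 at 129.6 against 31.8 and Plaur, the urokinase receptor gene, at 73.9 against 15.2. Mmp13 and Plau were at 0.138 and 0.574 CPM in polyp epithelium, and Hbegf and Areg were not higher in polyp than in normal epithelium. The polyp macrophages also held more epithelial RNA, with epithelial markers at 44819.6 against 1166 CPM, so equal epithelial levels do not decide its part. The part of epithelial RNA in all these genes was not tested. The counts behind the list were small: Thbs1 had 107 against 0 UMIs, Hbegf, a growth factor for epithelium, 167 against 6 UMIs (ratio 2.80, 1.26–7.74), Mmp13 56 against 1 UMIs (ratio 5.64, 0.971–227) and Plau 46 against 1 UMIs (ratio 4.63, 0.791–187). Spp1 had 363 against 1 UMIs, with 47.7% of the polyp UMIs in 1 barcode. Matrix metalloproteinase 9 (Mmp9) was the lower member, with 24 against 11 UMIs. Ccl12 was at 812 against 424 CPM (ratio 1.92, 1.34–2.83), and the transcription factor Klf2 was 2.44-fold (2.10–2.83) lower. All 23 normal UMIs of Ptgs2 lay in 1 barcode.

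**Figure D5:**
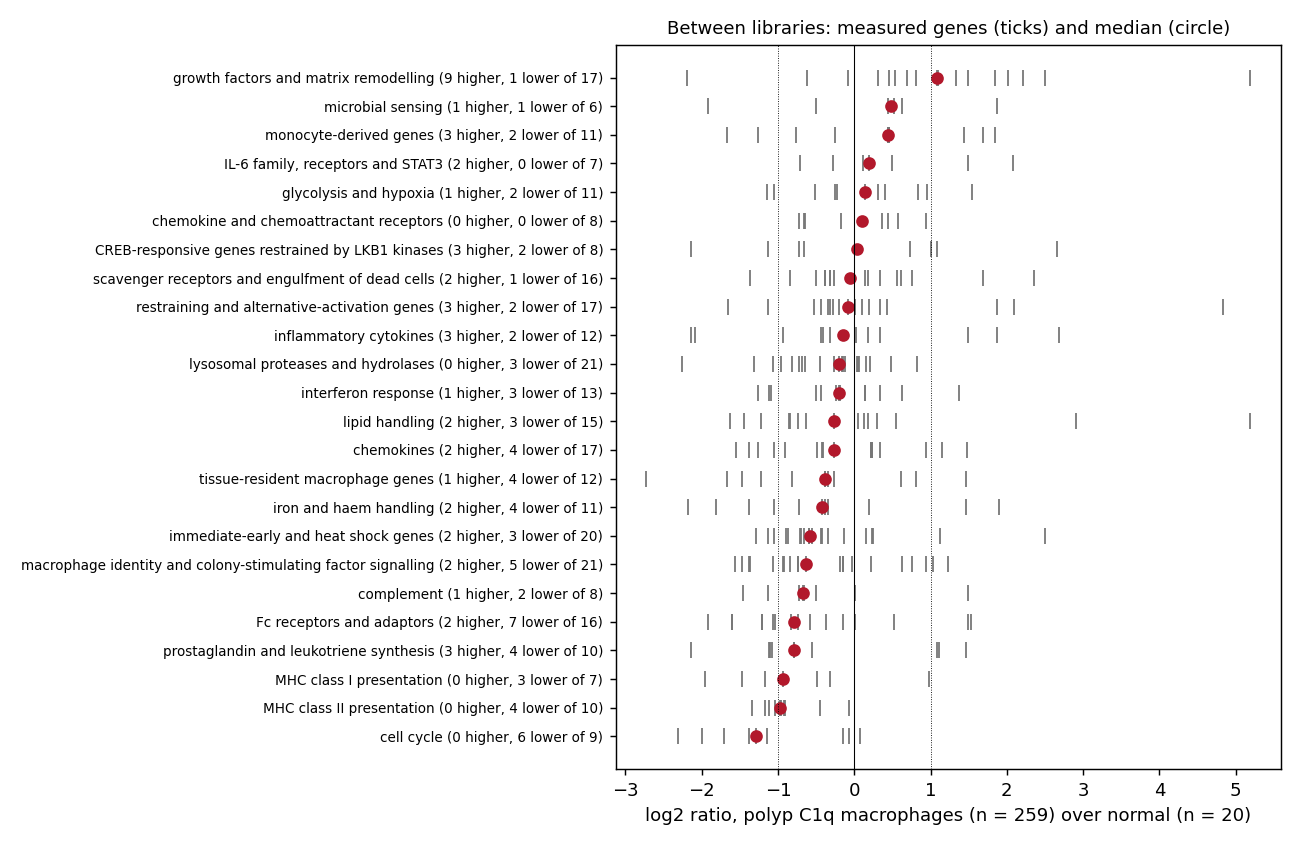
Log2 ratios of polyp C1q macrophages over the 20 C1q macrophages of normal duodenum for the lists of gene functions with more than 5 measured genes (cell type marker lists are not drawn): ticks are measured genes, circles the list medians and dotted lines 2-fold. Medians of the lists drawn run from 1.08 for growth factors and matrix remodelling to -0.97 for MHC class II and -1.29 for the cell cycle. The first of these takes 4 genes without normal UMIs at their bound.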

How the data were processed

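Single-cell 3′ UMI counts were deposited by the authors as 1 gene-by-barcode matrix per library, whole numbers with no normalization. Per the submitters' processing notes they used Cell Ranger 3.0.0 and mm10, while the matrix header names Cell Ranger 5.0.0. Of 32285 genes 32158 had a position in GENCODE M21, and 543 of 547 list symbols matched.

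UMIs were summed per set and divided by the set's total (CPM). Ratios have exact conditional binomial intervals, levels exact Poisson and shares Clopper-Pearson intervals, all at 95% and for counting error only. A gene was measured with at least 20 UMIs over both sets and called past 2-fold. A set at 0 UMIs was given a floor of 3. Depth was 749940 UMIs in the 259 polyp cells and 75479 in the 20 normal cells. Genes were ranked by the interval end nearest 1, among those with at least 50 UMIs and in at least 10% of the higher set. The first 15 higher and 10 lower were named against other Ptprc-positive barcodes, and 10 each way elsewhere, besides members of the gene lists. Genes used by a rule were left out, and some genes that the ranking or lists hold are not reported here.

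Doublets were scored with scrublet in scanpy 1.11.5. Its automatic thresholds of 0.327 (normal) and 0.692 (polyp) marked 0 barcodes, so the caller did not work and no barcode was removed. An alternative removed the 85 and 573 highest scores, among them 0 and 20 C1q macrophages. Python 3.11.15, numpy 2.4.6, scipy 1.17.1, pandas 2.3.3, anndata 0.12.19 and matplotlib 3.10.9 were used. The ratios, their intervals and the calls were tested on simulated Poisson sums. That simulation had no spread between barcodes, and the other steps were not simulated.

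The cells and gene lists were chosen with earlier results of these data known. The dendritic comparison, the description of the deepest barcode and 3 alternatives (at least 3 of 10 macrophage genes, without each gene's leading barcode, without the deepest barcode) were chosen after seeing the data.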

Additional observations from a re-analysis of the deposited data

Results flagged for a closer look

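Outside the barcode filter, 18 polyp barcodes had at least 3 C1q UMIs and 0 Cd3 UMIs, a signal in barcodes that no comparison used. They were 0.307% of the 5867 polyp barcodes left out, against 0 of 6698 in the normal library, which allows a share of up to 0.0448%. All 18 were over the limit for mitochondrial UMIs, with a median of 37.3% mitochondrial UMIs, 1221 UMIs, 4.5 C1q UMIs and 3 of the 10 macrophage genes. Of the 18, 3 had an Mrc1 UMI and 0 a Ly6c2 or Ccr2 UMI. What state these cells were in was not tested.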

How the results depend on the processing

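Over 15 alternatives, 94 of 116 values of the comparisons stayed within 1.5 times the main count, or within the interval of the main share, and 22 moved. Of the values of single genes 714 stayed, 162 moved and 16 reversed. Requiring 2 or 5 C1q UMIs set the polyp share at 3.48% and 2.53%. Another setting removed barcodes with 2 or more UMIs of other-type genes (Epcam, Krt8, Krt18, Cd79a, Cd79b, Col1a1 and Col1a2) from the compared sets. The polyp share was then 1.60%, but still over all kept barcodes, epithelium included, so only the numerator was filtered. With it came an Mrc1 share of 51.9% and 775 genes higher than in other Ptprc-positive barcodes. In the split 154 were higher and 80 lower, and between libraries 313 higher and 178 lower. The Mrc1 share was 52.1% from 1000 UMIs on. Thinning gave 35.1%, with 754, 118 and 155 genes higher in the 3 comparisons and 61 and 123 lower in the last 2. With no minimum of UMIs, 2412 and 845 were higher in the first 2 and 1533 and 1625 lower in the last 2, where more genes were then lower than higher. Between libraries no gene under the minimum could be called higher at these depths. Averaging over barcodes gave 1958 lower in the first, and leaving out the leading barcode of each gene 185 lower between libraries. Leaving out the deepest C1q macrophage changed no count beyond 1.5 times.

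In the split 5 genes reversed on the log2 scale. Reg1 (main -2.27) was at 0.50 with 5 C1q UMIs, 0.83 without high doublet scores, 0.12 without other-type barcodes and 0.72 without its leading barcode. In that order Dmbt1 (-2.09) was at 1.84, 2.82, 1.18 and 2.0. Reg3b (-1.95) was at 0.48, 0.38 and 0.13 under the last 3. Pyy (-3.83) was at 1.95 and 2.95 under the last 2, and Gast (-7.11) at 0.89 without its leading barcode. Against other Ptprc-positive barcodes Jchain (-4.96) was at 0.83 without other-type barcodes, and Acp5 between libraries (-2.26) at 0.062 when thinned. The setting for Jchain removed barcodes of B-lineage genes, Cd79a and Cd79b, among others, and left 487 of the 1173 comparison barcodes. Fewer barcodes or UMIs enter several of these settings; the cause of the reversals was otherwise not tested. No paired analysis was possible because each group has 1 library. The 20 normal and 18 Ccr2-only barcodes limit depth: genes with few UMIs there have wide intervals.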
